A study of Mus musculus with 8 samples.

Results

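The comparison is of lung RNA from C3H/HeJ mice exposed to ozone with lung RNA from C3H/HeJ mice exposed to filtered air. Its members were the 4 arrays of 8 whose titles name this substrain, 2 for ozone and 2 for air, read across every probe set that is not a control of the array. Of 12422 such probe sets, 10953 were bright enough to be tested, and these named 7629 genes. The other 4 arrays, 2 for ozone and 2 for air, came from C3H/HeOuJ mice and were used for the estimate of the spread and for the last comparison. The lungs were frozen in liquid nitrogen before RNA extraction. The labels give 72 h for the C3H/HeOuJ exposures and no time for the C3H/HeJ exposures. They give no ozone concentration, age, sex or number of animals, and they do not say what the letters a and b of the replicates 1a and 1b stand for. Nothing in the labels ties the a and b arrays to different mice. The p-values therefore reflect no more than how far a and b arrays differed, and that spread may be technical.

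C3H/HeJ and C3H/HeOuJ are closely related substrains. C3H/HeJ carries a missense mutation in Tlr4, the receptor for bacterial lipopolysaccharide, and responds weakly to it, whereas C3H/HeOuJ has a working receptor. Tlr4 itself was not analysed here. Ozone is an oxidant gas that reacts with the lining fluid of the airways. It injures ciliated cells and type 1 cells, draws in inflammatory cells and is followed by division of epithelial cells that replace those lost. Comparing the substrains is a known way of asking how far the response to ozone depends on that receptor.

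The values were scanner intensities that had been scaled so that each array had nearly the same trimmed mean, which lay between 800.39 and 800.41. The median intensity of the C3H/HeJ arrays ran from 352.76 to 359.38, and 20.1% to 21.0% of their probe sets lay below a floor of 69.6, the 20th percentile over all arrays. Values under the floor were set to it. Dividing the 5′ actin control probe set by the 3′ one gives a measure of RNA integrity. This ratio was 0.498 and 0.432 on the air arrays and 0.505 and 0.530 on the ozone arrays. It was 0.598 and 0.603 in C3H/HeOuJ air and 0.766 and 0.756 in C3H/HeOuJ ozone. The rank correlation between arrays was 0.957 within C3H/HeJ air, 0.961 within C3H/HeJ ozone and 0.950 to 0.963 between the exposures, so arrays of one exposure were hardly more alike than arrays of different exposures. Markers of the lung were bright on all 4 arrays. The surfactant gene Sftpc ranged from 45561 to 56980.0 and the club cell secretory gene Scgb1a1 from 40184 to 62463. Apoa1 of liver, Cd8a of cytotoxic T cells, Myh1 of skeletal muscle and Marco, a scavenger receptor of alveolar macrophages, were under the floor on all 4. Alb and Ttr of liver were under it on 1 array each. Tnnt3 of skeletal muscle and Cd3g of T cells were under it on 3. Acta1, Mylpf and Myh4 of skeletal muscle, Cd3e and Thy1 of T cells and Cd68, Chil3 and Lyz2 of macrophages were above it on all 4.

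In C3H/HeJ lung, no single probe set passed the test. With limma and Benjamini-Hochberg adjustment over 10953 probe sets, 0 were higher in ozone at an adjusted p under 0.05 (0.0%) and 0 were lower (0.0%), and the smallest adjusted p was 0.136. With no adjustment, p was under 0.05 for 258 probe sets with a higher level in ozone (2.36%) and for 218 with a lower one (1.99%). Together these were 476 probe sets (4.35%), against the 548 that a threshold of 0.05 would give if no probe set differed. Both ozone arrays lay above both air arrays for 2014 probe sets (18.4%) and below both for 1754 (16.0%). A difference of 2-fold or more was measured for 125 probe sets higher and 151 lower in ozone, of which 112 and 137 had arrays that did not overlap. The median standard error was 0.302 on the log2 scale, which gives a 95% interval of 0.69 log2 units, or 1.61-fold, either way. A difference smaller than that was mostly not detectable with 2 arrays a group. An exact two-sided permutation test of 2 against 2 arrays cannot give a p below 0.333. For these reasons the values below are descriptions, and "higher" and "lower" refer to the measured level on these arrays.

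Genes were next read in 44 lists of 11 to 78 tested members, 1 probe set per gene. A list is described by its median log2 difference, ozone minus air, and by its counts. The median over all 7629 genes was 0.00, with the middle 50% between -0.17 and 0.19. Among these genes, 187 (2.45%) had an unadjusted p under 0.05 with a higher level in ozone and 149 (1.95%) with a lower one. Both ozone arrays lay above both air arrays for 1414 genes (18.5%) and below both for 1304 (17.1%). For 37 of the 44 lists the median lay within 0.1 of 0, and for 41 it lay within 0.2. Mitosis genes stood at one end of the order and immunoglobulin genes at the other.

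**Figure D1:**
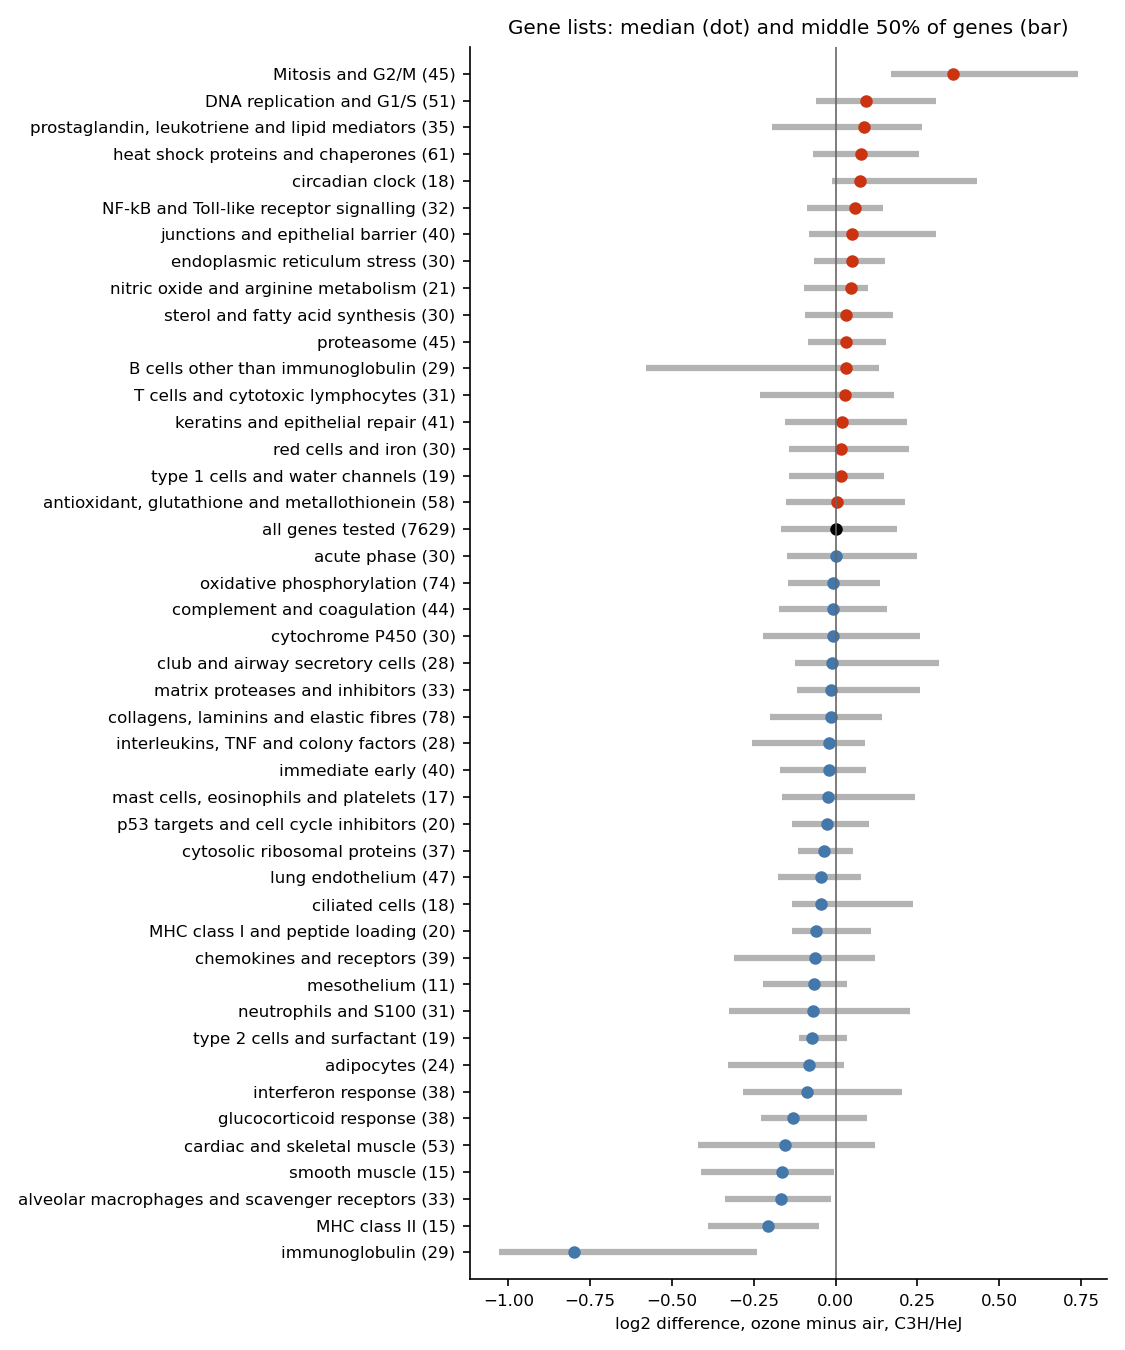
Each row is a gene list with its number of tested genes. The dot is the median log2 difference between C3H/HeJ ozone and air and the bar spans the middle 50% of the genes. Mitosis and G2/M genes are at the top with a median of 0.36, immunoglobulin genes are at the bottom with a median of -0.80, and all genes tested lie at 0.00.

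Mitosis genes were higher on the ozone arrays. The list holds the kinases, motors and checkpoint proteins that cells make while they pass through G2 and M phase, so it is read as a mark of dividing cells. Of 45 tested members, 40 were higher in ozone and 5 lower, with a median log2 difference of 0.36 and a middle 50% from 0.17 to 0.74. Both ozone arrays lay above both air arrays for 27 members, and below both for 1. The unadjusted p was under 0.05 for 12 members with a higher level in ozone and for 0 with a lower one. None of the 45 passed after adjustment over all probe sets. The level of the list, taken as the median deviation of its genes from their mean over the 4 C3H/HeJ arrays, was -0.15 and -0.22 on the air arrays and 0.25 and 0.22 on the ozone arrays.

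The 5 members of smallest p differ in how bright they were. Cks2, a small subunit that binds cyclin-dependent kinases, had intensities of 148 and 93.7 in air and 278 and 356 in ozone. Its log2 difference was 1.42 (SE 0.38, adjusted p = 0.860 by limma with Benjamini-Hochberg adjustment). Mybl2, a transcription factor that activates genes of G2 and M phase, measured 228 and 229 in air and 432 and 435 in ozone. The arrays of each exposure almost coincided for Mybl2, and its log2 difference was 0.92 (SE 0.28). Smc4, a condensin subunit that compacts chromosomes, measured 697 and 994 in air and 1292 and 1373 in ozone, a log2 difference of 0.68. Kif20a, a kinesin of the central spindle, measured 51.8 and 151 in air and 296 and 307 in ozone. Kif23, another kinesin needed for cytokinesis, measured 47.1 and 149.7 in air and 281 and 312 in ozone. For both kinesins 1 air array was under the floor, so their log2 differences of 1.55 and 1.54 depend on where the floor was set.

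The other 7 members with an unadjusted p under 0.05 were named after their values were seen. Ccna2, the cyclin of S and G2 phase, measured 651 and 561 in air and 909 and 1019.5 in ozone. Cdc20, an activator of the anaphase-promoting complex, measured 791 and 699.9 in air and 1108 and 1047 in ozone. Kif22, a kinesin that binds chromosome arms, measured 463 and 504 in air and 749 and 709 in ozone. In these 3, the brightest of the group, the differences were moderate and the arrays of each exposure were close together, with log2 differences of 0.67, 0.53 and 0.59. Cks1b, a paralogue of Cks2, measured 416 and 331 in air and 619.6 and 531 in ozone, a log2 difference of 0.63. Cdk1, the kinase that drives entry into mitosis, measured 232 and 128 in air and 394 and 332 in ozone, a log2 difference of 1.07. Birc5, or survivin, of the chromosomal passenger complex, measured 143 and 58.3 in air and 245 and 195 in ozone, a log2 difference of 1.13. The lower air value of Birc5 was under the floor, so this difference depends on where the floor was set. Cenpe, a kinetochore motor, was under the floor on both air arrays and measured 102 and 189 in ozone, which makes it at least 1.99-fold higher.

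Not every mark of division followed. Mki67, which encodes the antigen Ki-67, measured 455 and 337 in air and 365 and 339.9 in ozone, with overlapping arrays and a log2 difference of -0.15. Ube2c, the ubiquitin-conjugating enzyme of the anaphase-promoting complex, had a log2 difference of -0.23 and Spag5, a spindle protein, one of -0.57. The remaining lower members, Ccnf and Bub3, lay at -0.07 and -0.01.

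**Figure D2:**
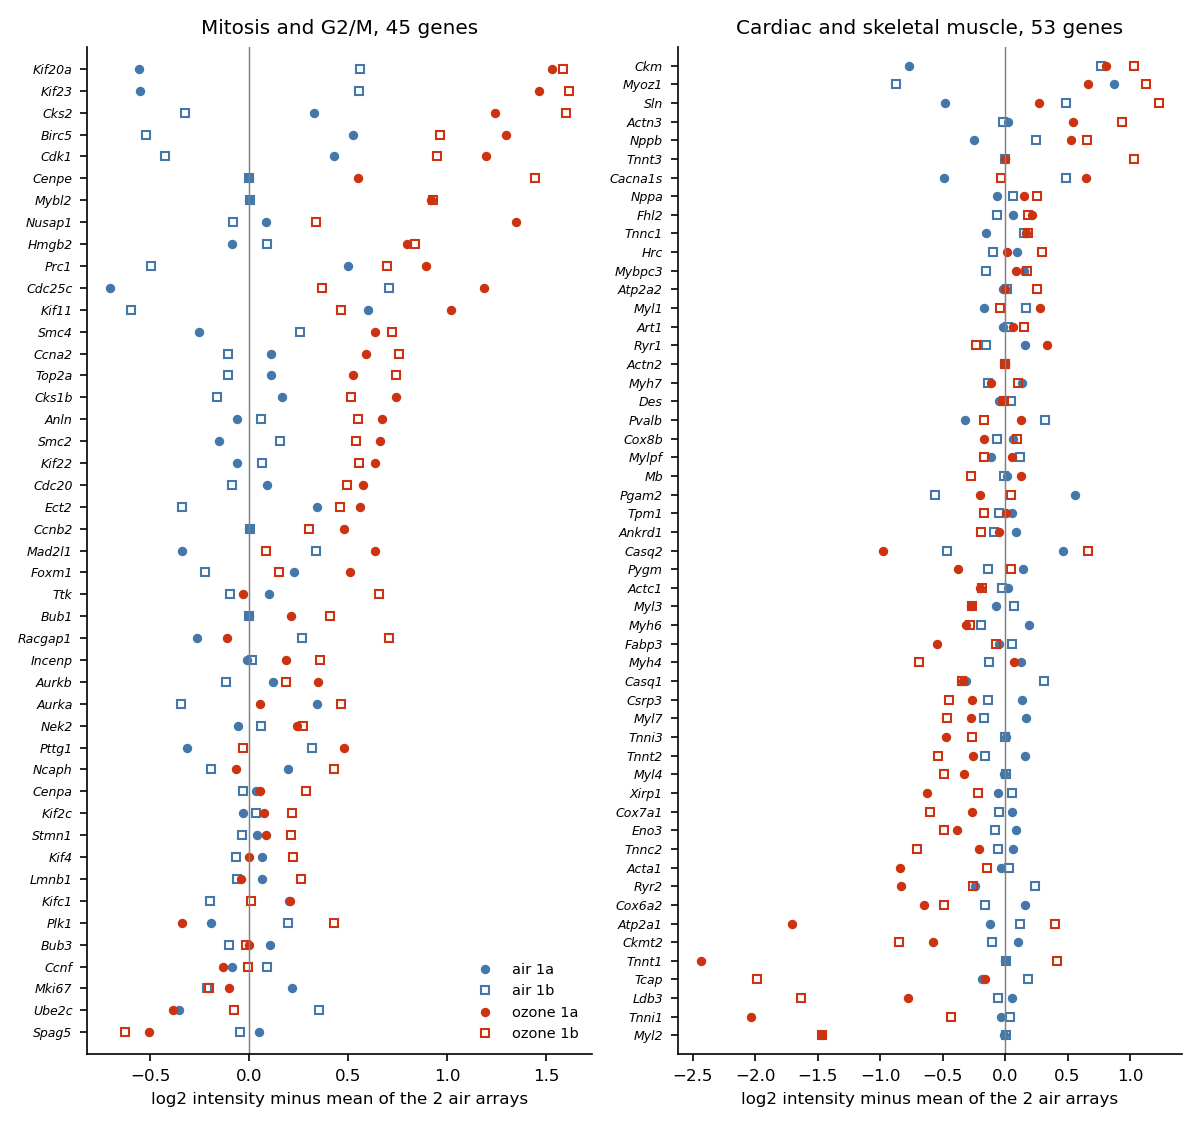
Each row is a gene and each point 1 C3H/HeJ array, plotted as log2 intensity minus the mean of the air arrays, so a point at 1 is 2-fold above air. In the left panel 40 of 45 mitosis genes average above 0 in ozone and the air arrays of Kif20a, Kif23 and Cdk1 are far apart. In the right panel 36 of 53 cardiac and skeletal muscle genes average below 0, with Myl2 lowest.

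Genes of DNA replication and the G1/S transition, which act before mitosis, were less one-sided. Of 51 tested, 33 were higher and 18 lower in ozone, with a median log2 difference of 0.09. The arrays did not overlap for 12 with a higher level and 0 with a lower one, and the unadjusted p was under 0.05 for 1. That gene was Cdc6, which loads the replicative helicase at origins. It measured 134 and 156 in air and 383 and 418 in ozone, a log2 difference of 1.47 (SE 0.41, adjusted p = 0.907 by limma with Benjamini-Hochberg adjustment). Pcna, the sliding clamp of DNA polymerase, measured 1277 and 1536 in air and 2069 and 1833 in ozone. Rrm2, the regulated subunit of ribonucleotide reductase, measured 157 and 164 in air and 237 and 276 in ozone. Pola1, the catalytic subunit of polymerase alpha, measured 128 and 67.8 in air, the lower value under the floor, and 203 and 144 in ozone. For all 3 the exposures did not overlap and the log2 differences were 0.48, 0.68 and 0.85. Rrm1, the other reductase subunit, had a log2 difference of 1.08, but its arrays overlapped, with 310.1 and 60.7 in air and 509 and 189.6 in ozone.

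Mitosis genes commonly share promoter elements, the cell cycle genes homology region and the CCAAT box, so the sequences just upstream of these genes are shown. RefSeq promoters of the mouse build GRCm38.p6 were searched over the 250 bases before the start site. The homology region was searched as TTTGAA and its reverse complement TTCAAA, and the CCAAT box as CCAAT and its reverse complement ATTGG. Promoters were found for 36 of the mitosis genes. Of their 39 promoters, 46.2% held the homology region, 79.5% the CCAAT box and 43.6% both. Over all 32851 promoters of 27025 genes, 16.0% held the homology region, 33.8% the CCAAT box and 5.55% both. For 57 promoters of 45 replication genes the shares were 12.3%, 52.6% and 7.02%. Among 9 promoters of mitosis members with an unadjusted p under 0.05, 44.4% held the homology region and 77.8% the CCAAT box. A match of letters is not a binding site, and the arrays give no measure of binding. The windows below are the 150 bases just upstream of the start of 4 of these members that hold both elements and of Cks2, which holds only the CCAAT box here. They run 5′ to 3′ on the strand of the gene, and capitals mark the elements.
Kif22, chr7:127042421-127042570, minus strand: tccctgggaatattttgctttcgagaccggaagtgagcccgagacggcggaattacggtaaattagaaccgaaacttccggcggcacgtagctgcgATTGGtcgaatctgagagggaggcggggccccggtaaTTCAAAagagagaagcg
Cks1b, chr3:89418292-89418441, minus strand: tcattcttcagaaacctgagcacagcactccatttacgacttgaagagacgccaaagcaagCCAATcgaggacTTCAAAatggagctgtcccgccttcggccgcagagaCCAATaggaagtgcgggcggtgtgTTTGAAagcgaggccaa
Cdc20, chr4:118437344-118437493, minus strand: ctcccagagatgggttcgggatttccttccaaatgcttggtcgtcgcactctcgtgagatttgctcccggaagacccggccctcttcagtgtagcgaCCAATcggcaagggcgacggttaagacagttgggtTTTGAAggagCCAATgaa
Cdk1, chr10:69352913-69353062, minus strand: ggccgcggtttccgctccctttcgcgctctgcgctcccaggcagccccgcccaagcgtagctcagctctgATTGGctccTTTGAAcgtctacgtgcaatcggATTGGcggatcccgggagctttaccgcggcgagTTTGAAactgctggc
Cks2, chr13:51645082-51645231, plus strand: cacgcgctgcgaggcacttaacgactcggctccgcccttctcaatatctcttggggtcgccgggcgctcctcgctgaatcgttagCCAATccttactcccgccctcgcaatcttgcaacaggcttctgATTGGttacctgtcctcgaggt
In Kif22, Cks1b, Cdc20 and Cdk1 a homology region ended 10 to 13 bases before the start site, at base 12, 12, 13 and 10.

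Immunoglobulin genes were lower on the ozone arrays. These genes encode the heavy and light chains of antibodies and are transcribed in B cells and, far more strongly, in plasma cells. Of 29 tested genes, 26 were lower and 3 higher in ozone, with a median log2 difference of -0.80 and a middle 50% from -1.03 to -0.24. Both ozone arrays lay below both air arrays for 17 genes, and above both for 2. The unadjusted p was under 0.05 for 10 genes with a lower level and 0 with a higher one. The intensities of the 29 genes summed to 33830 and 33230 on the air arrays and to 19120 and 18590 on the ozone arrays. In a bulk sample, fewer cells of a type and less RNA per cell cannot be told apart.

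The constant regions show the class of antibody. Ighm, the heavy chain of IgM, measured 7235 and 7226 in air and 3609 and 3482 in ozone. Its log2 difference was -1.03 (SE 0.13, adjusted p = 0.136 by limma with Benjamini-Hochberg adjustment). Igha, the heavy chain of IgA, the antibody of mucosal surfaces, measured 3646 and 3868 in air and 1804 and 1516 in ozone, a log2 difference of -1.18 (SE 0.17). For both classes the ozone arrays were near 2-fold below air and the arrays of each exposure were close. Ighg3, of IgG3, went the other way on its brightest probe set, by 0.45, although 4 of its 6 probe sets were lower in ozone.

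Among the kappa variable segments, Igkv6-23 was the brightest of those named and had the smallest p of all probe sets higher or lower. It measured 8022 and 8817 in air and 3177 and 3035 in ozone, a log2 difference of -1.44 (SE 0.17, adjusted p = 0.136 by limma with Benjamini-Hochberg adjustment). Igkv4-91 measured 2059.7 and 1739 in air and 1047 and 1062 in ozone, and Igkv4-70 measured 1182 and 802 in air and 412 and 407 in ozone. Igkv8-19 measured 548 and 409 in air and 178 and 148 in ozone, a log2 difference of -1.55. In each of these segments the lower air array was well above the higher ozone array. With 1 probe set per gene, Igkv1-135 had the largest positive value, at 74.7 and 96.6 in air and 219.9 and 134 in ozone, close to the floor in air. Counting every probe set, 1 of the 3 of Igkv14-111 was higher still, with a log2 difference of 1.36, while the other two were lower.

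Many immunoglobulin probe sets overlap in sequence. The array puts a letter before the suffix of probe sets that can match several genes, and of some others. Counting every probe set in place of 1 per gene, 49 of 61 were lower in ozone and 10 higher, with a median log2 difference of -0.50. The unadjusted p was under 0.05 for 16 lower and 1 higher, and the exposures did not overlap for 30 lower and 4 higher. Of the 33 lettered probe sets, 27 were lower with a median of -0.84, and of the 28 plain ones 22 were lower with a median of -0.30. The lettered probe sets of the whole array numbered 2372 and had a median of 0.02. Since the same RNA can be read by several of them, these counts are not of independent measurements. By type, 20 of 24 kappa variable, 19 of 23 heavy constant or heavy locus and 6 of 8 heavy variable probe sets were lower. The medians of these types were -0.82, -0.50 and -0.60. Of the 13 probe sets of Ighm, 11 were lower and 2 higher, with a median of -0.65. The 3 of Igha were all lower, but 1 had a log2 difference of only -0.03. Its arrays overlapped and were under the floor in ozone. Of the 9 probe sets with a mean of 1000 or more in air, 8 were lower, with a median of -0.84.

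**Figure D3:**
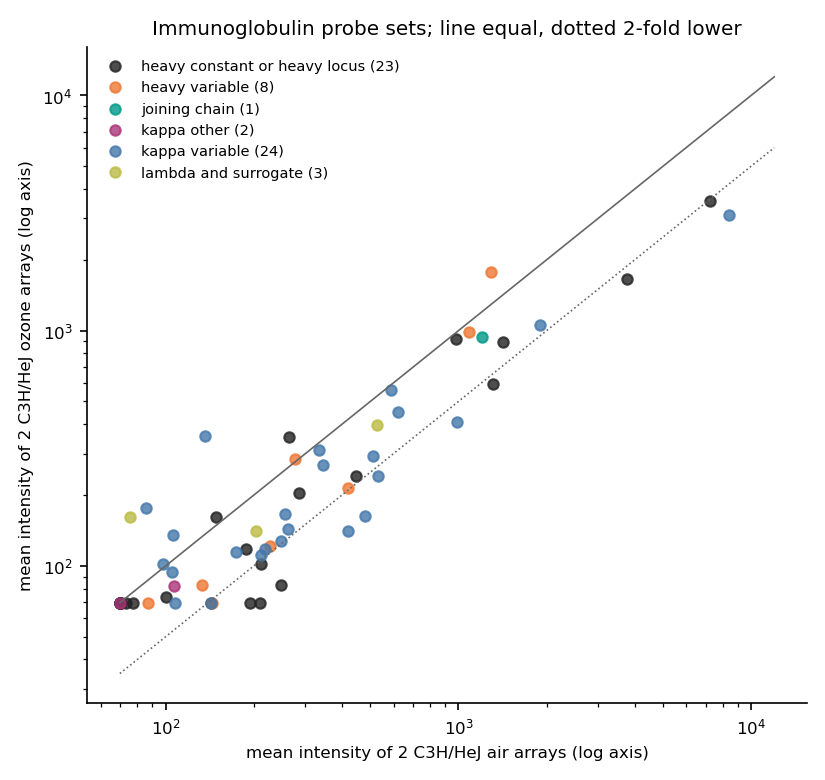
Each point is an immunoglobulin probe set, plotted as the mean intensity of the C3H/HeJ air arrays against that of the ozone arrays on log axes, with colours for the type of segment. The solid line marks equal levels and the dotted line a 2-fold lower level in ozone. Of 61 probe sets, 49 are lower in ozone, and the brightest lie near the dotted line.

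The other genes of B cells divided. Of 29 tested, 15 were higher and 14 lower in ozone, with a median of 0.03, but the middle 50% was lopsided, from -0.58 to 0.13. The list level was 0.09 and 0.08 in air and -0.07 and -0.13 in ozone, and the median was -0.17 without ozone 1a. The arrays did not overlap for 12 with a lower level and 4 with a higher one, and the unadjusted p was under 0.05 for 1. Cd22, an inhibitory coreceptor of the B cell receptor, measured 308 and 354 in air and 85.1 and 167 in ozone, a log2 difference of -1.47 (SE 0.42). Cd79a, a signalling chain of that receptor, measured 960.0 and 948 in air and 650.3 and 578 in ozone, and its partner Cd79b measured 1034 and 983 in air and 733 and 707 in ozone. Blk, a B cell tyrosine kinase, measured 500.5 and 612 in air and 324 and 423 in ozone. The log2 differences of these 3 were -0.64, -0.49 and -0.58, smaller than those of the antibody chains. Ms4a1, which encodes CD20 of mature B cells, overlapped at 1014 and 1176 in air and 1090.0 and 972 in ozone. Jchain, which joins antibody chains of IgA and IgM in plasma cells, had a log2 difference of -0.35 with overlapping arrays. The 5 measured markers of B and plasma cells, Cd79a, Cd79b, Ms4a1, Ighm and Jchain, summed to 11250 to 11740 in air and 6565 to 7126 in ozone. Ighm, already described among the immunoglobulin genes, was the largest part of each sum. T cell genes had a median of 0.03, and their 4 markers overlapped at 468 to 663 in air and 379 to 651 in ozone, with Cd8a under the floor throughout.

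Cardiac and skeletal muscle genes were lower on the ozone arrays by less. Cardiac muscle in a mouse lung sample lies in the sleeves of the pulmonary veins, and pieces of heart can also be taken along. Of 53 tested, 36 were lower and 16 higher in ozone, and 1 was at the floor throughout. The median log2 difference was -0.15 and the middle 50% ran from -0.42 to 0.12. The arrays did not overlap for 21 with a lower level and 7 with a higher one, and the unadjusted p was under 0.05 for 7 lower and 0 higher. Myl2, the ventricular regulatory light chain, measured 191 and 194 in air and was under the floor on both ozone arrays, which makes it at least 2.76-fold lower (adjusted p = 0.434 by limma with Benjamini-Hochberg adjustment). Myl2 was also under the floor on every C3H/HeOuJ array. It was therefore bright enough to be tested only through C3H/HeJ air, and its p is no support for a difference. Cox6a2, the muscle form of a cytochrome oxidase subunit, measured 3582 and 2881 in air and 2045 and 2295 in ozone, a log2 difference of -0.57. Ckmt2, the creatine kinase of muscle mitochondria, measured 956 and 826 in air and 595 and 492 in ozone, a log2 difference of -0.72. These 3 had separate arrays by a wide margin.

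Tnni3, cardiac troponin I, measured 1816 and 1805 in air and 1304 and 1506 in ozone, a log2 difference of -0.37. Eno3, the muscle enolase, measured 1240.0 and 1104 in air and 898 and 834 in ozone, a log2 difference of -0.44. Atrial genes, named after their values were seen, differed in direction. Myl4, an atrial light chain, measured 4543 and 4584 in air and 3624 and 3246 in ozone, and Myl7, the other atrial light chain, 6169 and 4905 in air and 4559 and 3988 in ozone. Nppa, the atrial natriuretic peptide, was by contrast slightly higher in ozone, at 819 and 895 in air and 949 and 1024 in ozone. Ckm, the cytosolic creatine kinase of muscle, had a log2 difference of 0.92, but its air arrays were far apart, at 87 and 253 against 259.7 and 304 in ozone. The 6 heart markers summed to 14360 to 15990 in air and 11730 to 12370 in ozone, and the skeletal muscle markers to 1193 to 1212 in air and 1047 to 1146 in ozone. The share of heart muscle in the samples was not measured in another way, and its part in these values was not tested.

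Smooth muscle genes, of airway and vessel walls, had a median of -0.16, with 11 of 15 lower and 3 higher. The median was -0.04 without ozone 1b and -0.37 without air 1b. The arrays did not overlap for 5 with a lower level and 1 with a higher one, and the unadjusted p was under 0.05 for 2. Cnn1, calponin, measured 1456 and 1092 in air and 828 and 904 in ozone, a log2 difference of -0.54. Acta2, smooth muscle actin, measured 3097 and 3015 in air and 2446 and 2344 in ozone, a log2 difference of -0.35. The 4 markers of smooth muscle summed to 8391 to 10100 in air and 7277 to 7403 in ozone.

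Genes of MHC class II and of macrophages were mostly lower. MHC class II molecules show peptides to helper T cells on B cells, macrophages and dendritic cells. Of 15 tested genes, 12 were lower and 3 higher in ozone, with a median of -0.21, and the unadjusted p was under 0.05 for 2 lower and 1 higher. The median was -0.05 without air 1a and -0.31 without air 1b. Genes of MHC class I and peptide loading, which present to cytotoxic T cells, had a median of -0.06, with 14 of 20 lower and 6 higher. H2-Eb1, a beta chain, measured 5116 and 4569.7 in air and 3643 and 3446 in ozone, a log2 difference of -0.45. H2-DMa, a chain of the peptide-loading molecule, measured 4424 and 4821 in air and 3456 and 3558 in ozone, a log2 difference of -0.40. Cd74, the invariant chain, measured 22373 and 24159 in air and 18120.0 and 18044 in ozone, a log2 difference of -0.36. H2-DMb2, also of the loading molecule, was the member in the other direction, at 323 and 520.5 in air and 774 and 828 in ozone, a log2 difference of 0.97. Ciita, the transactivator of the class, overlapped at 558 and 539 in air and 516 and 653 in ozone. Of the B and plasma cell markers given above, Cd79a, Cd79b and Ighm were lower on both ozone arrays, while Ms4a1 and Jchain overlapped. The part of B cells in the class II values was not tested.

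Of 33 genes of alveolar macrophages and scavenger receptors, 25 were lower and 8 higher, with a median of -0.17, which was -0.07 without ozone 1a. Arrays did not overlap for 11 lower and 2 higher, and the unadjusted p was under 0.05 for 2 lower. Tyrobp, the adaptor of activating myeloid receptors, measured 2722 and 2332 in air and 1835 and 1542 in ozone, a log2 difference of -0.58 (SE 0.14, adjusted p = 0.720 by limma with Benjamini-Hochberg adjustment). Chil3, a chitinase-like protein that alveolar macrophages secrete, measured 3060.5 and 2738 in air and 2062 and 1729.8 in ozone, a log2 difference of -0.62. The summed macrophage markers overlapped, at 24160 to 29110 in air and 19700 to 25560 in ozone, and most of that sum was the lysozyme gene Lyz2, at 24900 and 20340 in air and 22510 and 17120 in ozone. Cd68, a lysosomal protein, did not overlap, at 1104 and 1049 in air and 965 and 806 in ozone.

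Some airway genes were among the clearer single differences. The list of club and airway secretory cells had a median of -0.01, with 14 of 28 higher and 14 lower, and the unadjusted p was under 0.05 for 5 higher and 1 lower. Ces1g, a carboxylesterase, measured 96.8 and 124 in air and 378 and 315 in ozone, a log2 difference of 1.65 (SE 0.41). Reg3g, a lectin that kills Gram-positive bacteria, measured 493 and 562 in air and 803 and 874 in ozone, a log2 difference of 0.67, and its second probe set gave 0.95. Agr2, a disulphide isomerase needed for mucin, was under the floor in air and measured 169.7 and 163 in ozone, which makes it at least 2.39-fold higher. Bpifb1, a secreted protein of the upper airway, measured 1002 and 1143 in air and 1699.6 and 1308 in ozone, a log2 difference of 0.48. Pon1, an esterase carried on lipoproteins, was lower, at 3253 and 3689 in air and 2790.2 and 2076 in ozone. Scgb1a1 itself had a log2 difference of -0.22 with overlapping arrays.

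Acute phase genes had a median of 0.00. Saa3, the serum amyloid A made in tissues, measured 551 and 280.1 in air and 979 and 1086 in ozone, a log2 difference of 1.39 (SE 0.32, adjusted p = 0.637 by limma with Benjamini-Hochberg adjustment). Hpx, which binds free haem, measured 45.2 and 101 in air and 178 and 144 in ozone, but Cfb, factor B of complement, was lower at 209 and 378 in air and 148 and 81.4 in ozone. The list held 2 genes with an unadjusted p under 0.05 and a higher level, Saa3 and Reg3g, and 1 with a lower level, Cfb.

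Chemokine genes were mixed, with 16 of 39 higher and 23 lower and a median of -0.06. Cxcl13, which draws B cells into follicles, measured 259 and 181 in air and 95.8 and 88.5 in ozone, a log2 difference of -1.23. Ccl5, which draws T cells, measured 642 and 814 in air and 482 and 454 in ozone, a log2 difference of -0.63. Cxcr3, a receptor of activated T cells, measured 406 and 374 in air and 187 and 238 in ozone. Ccl9 measured 826 and 1042 in air and 528 and 629.5 in ozone. These 4 were lower on both ozone arrays, while Ccl8, an attractant of monocytes, measured 73.6 and 55.8 in air and 333 and 135 in ozone. The lower air value of Ccl8 was under the floor. Cxcl2, an attractant of neutrophils, lay near the floor, at 167 and 97.9 in air and 59.8 and 95.5 in ozone.

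Cytokine genes had 1 member on each side with an unadjusted p under 0.05. Tnfsf9, the ligand of 4-1BB, was under the floor in air and measured 332 and 216 in ozone, at least 3.85-fold higher. Il1b, interleukin 1 beta, measured 374 and 321 in air and 139 and 229.6 in ozone, a log2 difference of -0.96. Il6 was under the floor on all 4 arrays. Neutrophil genes had a median of -0.07. The granule peptides Camp, at 728 and 702 in air and 1109.8 and 1189.6 in ozone, and Ngp, at 46.1 and 72 in air and 117 on both ozone arrays, were higher. S100a9, the abundant calcium-binding protein of neutrophils, was lower, at 1783 and 1609 in air and 1192 and 1112 in ozone, and its partner S100a8 had a log2 difference of -0.35. The summed neutrophil markers were 4509 to 4611 in air and 3427 to 3759 in ozone, lower on both ozone arrays, and S100a8 and S100a9 made up most of the sum. The granule enzymes did not follow, since Elane, neutrophil elastase, measured 359.5 and 377 in air and 415 and 466 in ozone, and Mpo, myeloperoxidase, had a log2 difference of 0.04.

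Genes that respond to oxidants showed little difference. Of 58 antioxidant, glutathione and metallothionein genes, 29 were higher and 29 lower, with a median of 0.00. Hmox1, haem oxygenase 1, measured 2503 and 2274 in air and 2521 and 2440.0 in ozone, a log2 difference of 0.06 with a 95% interval from -0.26 to 0.37. Mt1 and Mt2, the metallothioneins, had log2 differences of -0.13 and -0.19. Mgst3, a microsomal glutathione transferase, measured 1675 and 1342 in air and 1908 and 2291 in ozone, and Me1, the malic enzyme that makes NADPH, 1871 and 2314 in air and 2919 and 2741 in ozone. These were the 2 members with an unadjusted p under 0.05 and a higher level, with log2 differences of 0.48 and 0.44. Mt3, a metallothionein, was the 1 with a lower level, at a log2 difference of -0.34. Cd14, the coreceptor of lipopolysaccharide, measured 2480.2 and 2593 in air and 2584 and 2714 in ozone, a log2 difference of 0.06. The NF-kB and Toll-like receptor list, to which Cd14 belongs, had a median of 0.06. The keratins Krt8 and Krt18, raised in injured alveolar epithelium, had log2 differences of 0.26 and 0.18. The arrays of Krt18 overlapped, at 1083 and 1181 in air and 1434 and 1139 in ozone.

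Heat shock proteins and chaperones were slightly higher as a list, with 43 of 61 higher and 18 lower and a median of 0.08. The members of smallest p were cochaperones of HSP70. Dnaja1 measured 2263 and 3182 in air and 3459.7 and 4136 in ozone, and Dnajb6 2061 and 2576 in air and 3036 and 3039 in ozone. Dnajc7 measured 715 and 783 in air and 1142 and 925 in ozone. Their log2 differences were 0.50, 0.40 and 0.46. Hspa1a, the inducible HSP70, overlapped at 316 and 472 in air and 597 and 462 in ozone.

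Clock genes were unequal. Of 18 tested, 13 were higher and 5 lower, with a median of 0.08. Nr1d2, a repressor that is an output of the clock, measured 376 and 458 in air and 759.5 and 726 in ozone, a log2 difference of 0.84. Dbp, another output gene that cycles steeply, was under the floor in air and measured 104 and 144 in ozone, at least 1.76-fold higher. Arntl, which encodes the activator BMAL1, was lower, at 813 and 902 in air and 547 and 714 in ozone. The labels give no time of day for the lungs, so exposure and the hour of collection cannot be told apart in these genes.

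Of 40 genes of junctions and the epithelial barrier, 25 were higher and 15 lower, with a median of 0.05. Gja1, connexin 43 of gap junctions, measured 4138 and 5652 in air and 7159 and 7563 in ozone, a log2 difference of 0.61. Jup, plakoglobin of desmosomes, measured 4033 and 4388 in air and 2379 and 2685 in ozone, a log2 difference of -0.74. Tjp1, the scaffold ZO-1 of tight junctions, overlapped at 4867 and 7021 in air and 6963 and 5780.0 in ozone. Of 47 lung endothelium genes, 31 were lower and 16 higher, with a median of -0.04, and Lyve1, a hyaluronan receptor of lymphatic vessels, had the smallest p. It measured 1729.5 and 1861 in air and 1258 and 1212 in ozone, a log2 difference of -0.54. Glucocorticoid response genes had a median of -0.13, with 24 of 38 lower, 14 higher and arrays not overlapping for 13 lower and 0 higher. Map3k6, a stress kinase of that list, measured 113 and 173 in air and was under the floor in ozone, at least 2.01-fold lower.

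The genes of smallest p, whatever their list, were next taken in order. The values chose these genes, so they are given as a description. The 12 higher in ozone had adjusted p-values from 0.381 to 0.637 by limma with Benjamini-Hochberg adjustment. Adra2c, an adrenergic receptor, measured 69.4 and 77.5 in air and 348 and 324 in ozone, a log2 difference of 2.19 (SE 0.36). Gnao1, a G protein subunit of neurons, measured 144 and 133 in air and 466 and 541 in ozone. Lep, the hormone leptin of adipocytes, measured 539 and 605 in air and 1665 and 1578 in ozone, a log2 difference of 1.51. Its second probe set gave 0.17, and Adipoq, the other measured adipocyte marker, overlapped at 379 and 383 in air and 358 and 430.5 in ozone. The list of 24 adipocyte genes had a median of -0.08.

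Igsf10, an immunoglobulin superfamily protein, measured 1419 and 1350.1 in air and 2507 and 2241 in ozone, a log2 difference of 0.78. Timm17b, of the mitochondrial import channel, measured 1664 and 1617 in air and 2712 and 3612 in ozone. Yif1a, a protein of the early secretory pathway, measured 948 and 786 in air and 1318 and 1629 in ozone. These were among the brighter of the 12, and the exposures were well apart in each. Ube2k, a ubiquitin-conjugating enzyme, measured 220.3 and 262 in air and 676 and 957 in ozone, but its other probe set gave a log2 difference of 0.14. Cyp1a1, the cytochrome induced through the aryl hydrocarbon receptor, was under the floor in air and at least 2.96-fold higher, whereas its brighter probe set gave -0.11. Retn, resistin, was under the floor in air, measured 164 and 175 in ozone and was at least 2.43-fold higher. Sfn, the epithelial 14-3-3 sigma, was under the floor in air, measured 301 and 285 in ozone and was at least 4.21-fold higher. Pou3f2, a transcription factor, and Trim59, of the tripartite motif family, had log2 differences of 1.64 and 1.58. Of these 12 genes, 5 had an array at the floor.

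The 12 lower in ozone had adjusted p-values from 0.136 to 0.565, and among them were Igkv6-23, Ighm, Igha, Igkv8-19, Igkv4-91 and Myl2, described above. Nr4a1, an orphan nuclear receptor of the immediate early class, measured 1402 and 1364 in air and 755 and 753 in ozone, a log2 difference of -0.88 (SE 0.14). Nedd4l, a ubiquitin ligase that removes the epithelial sodium channel from the membrane, measured 1955 and 2194 in air and 1034 and 1329 in ozone, a log2 difference of -0.82. Both were bright, with exposures well apart, but the plain probe set of Nedd4l gave 0.09 with overlapping arrays. Rab20, a small GTPase of endosomes, measured 431 and 505 in air and 152 and 118 in ozone, a log2 difference of -1.80. Strn4, a striatin scaffold, measured 384 and 401 in air and 82.8 and 81 in ozone, a log2 difference of -2.26. Urod, a haem synthesis enzyme, measured 247 and 534 in air and 80.2 and 91 in ozone, but its brighter probe set gave a log2 difference of -0.17. Coro2b, a coronin, was under the floor in ozone and at least 2.75-fold lower, and its other probe set gave 0.14. Like Myl2, the probe set of Coro2b taken here was under the floor on every C3H/HeOuJ array and was tested only through C3H/HeJ air.

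Other probe sets of the same genes did not repeat these sizes. Leaving out immunoglobulin, 4 of the 12 higher genes had another tested probe set, 6 in all, of which 5 had the same sign and 0 reached 50% of the difference. Of the 12 lower genes, 3 had another, 3 in all, of which 1 had the same sign and 0 reached 50%. The largest differences were mostly close to the floor on one side. Csf3r, the receptor of granulocyte colony-stimulating factor, measured 538 and 693 in air and 95.2 and 102 in ozone, a log2 difference of -2.63, while its other probe sets gave 0.40 and -0.04. Alox15, a lipoxygenase, was under the floor in ozone and at least 4.33-fold lower, and Hic1, a transcriptional repressor, at least 3.67-fold lower. The other probe sets of Hic1 gave -0.35 and -0.19 with overlapping arrays. Slc16a8, a lactate transporter, was at least 4.60-fold higher. Lin9, a subunit of the complex that binds the homology region of mitosis promoters, measured 75.4 and 51.3 in air and 385 and 267 in ozone, and Ckap2, a spindle protein, 169 and 103 in air and 490.2 and 569.9 in ozone. Lect2, a secreted protein of liver and leukocytes, measured 65.9 and 71.5 in air and 204 and 366 in ozone.

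**Figure D4:**
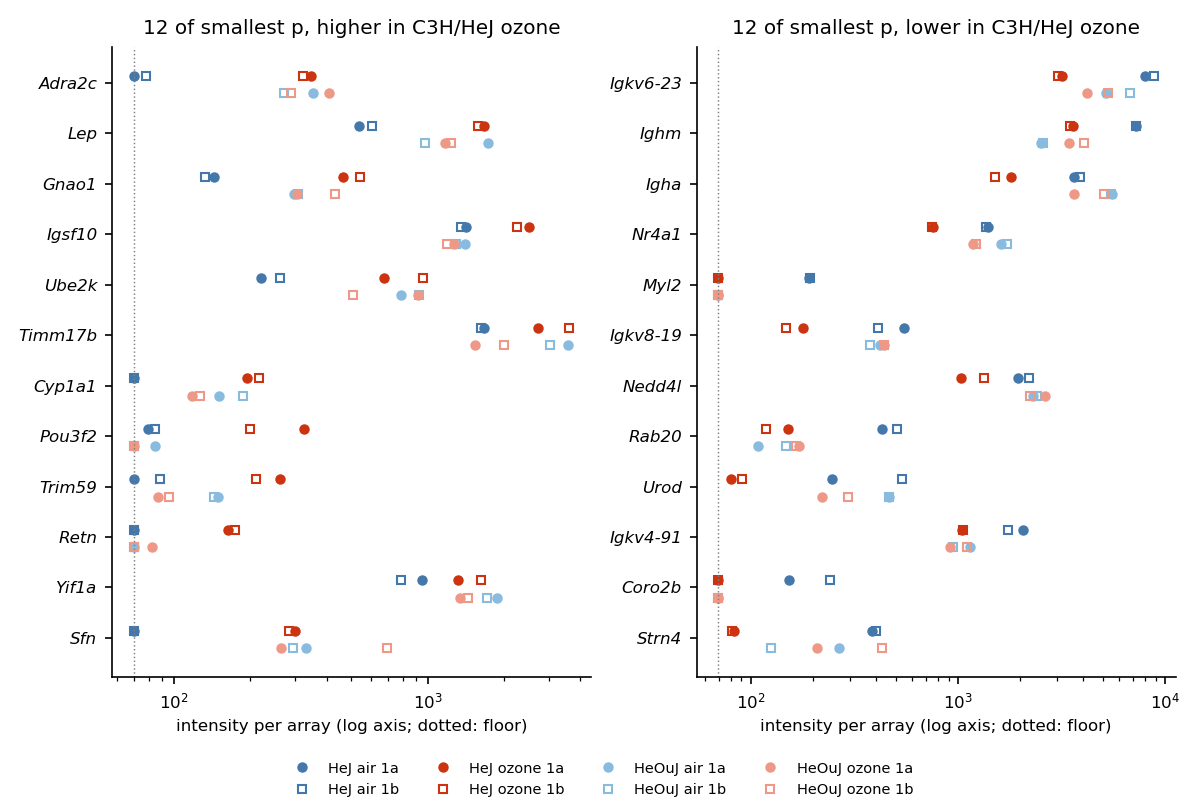
Each row is a gene and each point 1 array, on a log axis of intensity, with C3H/HeJ arrays above C3H/HeOuJ arrays in each row and a dotted line at the floor of 69.6. The left panel holds the 12 genes of smallest p that were higher in C3H/HeJ ozone and the right panel the 12 that were lower. For Adra2c, Lep and Nedd4l the C3H/HeOuJ exposures overlap while those of C3H/HeJ do not.

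The same genes were then set beside C3H/HeOuJ, with the difference between the substrains tested in the same model. At an adjusted p under 0.05, 0 of 10953 probe sets differed in their ozone response (0.0%), and the smallest adjusted p was 0.0509, which Ighm shared with Wnk1, a kinase, and Eif4a2, a helicase of translation. On its brightest probe set Wnk1 had log2 differences of 0.21 in C3H/HeJ and -1.65 in C3H/HeOuJ, and Eif4a2 of 0.29 and -1.37, so their difference lay mostly in C3H/HeOuJ. Ighm measured 2502 and 2561 in C3H/HeOuJ air and 3434 and 4045 in C3H/HeOuJ ozone, a log2 difference of 0.56, opposite to the -1.03 of C3H/HeJ. The difference in response was 1.59 log2 units. On this probe set C3H/HeJ air was the highest group, but the levels were ordered otherwise on a plain Ighm probe set. That one had means of 1311 in C3H/HeJ air, 592 in C3H/HeJ ozone, 2858 in C3H/HeOuJ air and 2953 in C3H/HeOuJ ozone. Another plain Ighm probe set was again highest in C3H/HeJ air, with means of 1419 in air and 896 in ozone. In C3H/HeOuJ its means were 1072 in air and 857 in ozone, a log2 difference of -0.33, so it was lower in ozone in both substrains. Over the 13 Ighm probe sets the C3H/HeOuJ median was 0.085, with 5 lower. Timm17b was higher in C3H/HeJ ozone and lower in C3H/HeOuJ ozone, at 3567 and 3036 in C3H/HeOuJ air and 1539 and 1999 in C3H/HeOuJ ozone. Its difference in response had an adjusted p of 0.115 by limma with Benjamini-Hochberg adjustment. Of the 12 genes higher in C3H/HeJ, 4 had the same sign in C3H/HeOuJ, with a median there of -0.13. Of the 12 lower, 5 had the same sign and 2, Myl2 and Coro2b, were at 0 because they were under the floor on every C3H/HeOuJ array. In some of the higher genes the C3H/HeJ air arrays were the low ones, as in Adra2c, which measured 352 and 271 in C3H/HeOuJ air, in Lep, at 1732 and 979, and in Ube2k, at 788 and 924.

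Mitosis genes were higher in ozone in both substrains. The list level in C3H/HeOuJ was -0.12 and -0.44 in air and 0.31 and 0.31 in ozone, and the median log2 difference was 0.59, against 0.36 in C3H/HeJ. In C3H/HeOuJ, 35 of 45 members were higher and 10 lower. Kif20a had log2 differences of 1.55 in C3H/HeJ and 2.34 in C3H/HeOuJ, and Cdk1 1.07 and 2.16, while Smc4 had 0.68 and -0.67. Replication genes had medians of 0.09 and 0.36. Cdc6 had log2 differences of 1.47 and 0.12. Saa3 had 1.39 and 2.32, Reg3g 0.67 and 2.34, Ces1g 1.65 and 2.19 and Ccl8 1.57 and 1.25, so these genes were higher in ozone in both substrains. Lyve1 had -0.54 and -1.17, Chil3 -0.62 and -1.19, Ccl9 -0.69 and -1.21, Il1b -0.96 and -0.99 and Nr4a1 -0.88 and -0.47, lower in both. Krt18 had 0.18 and 1.67, Krt8 0.26 and 0.99, Hspa1a 0.44 and -2.16 and Tjp1 0.12 and -1.24. For these last 4 the test of the difference between substrains gave adjusted p-values of 0.156, 0.275, 0.115 and 0.157 by limma with Benjamini-Hochberg adjustment.

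Immunoglobulin genes, by contrast, had a median of -0.05 in C3H/HeOuJ, with 14 higher and 15 lower, against -0.80 in C3H/HeJ. Their list level was 0.40 and 0.26 in C3H/HeJ air, -0.27 and -0.41 in C3H/HeJ ozone, 0.17 and -0.15 in C3H/HeOuJ air and -0.03 and 0.01 in C3H/HeOuJ ozone. The difference between the substrains was tested gene by gene and not for the list. Muscle genes had a median of 0.12 in C3H/HeOuJ, with 32 higher and 20 lower, and MHC class II genes one of 0.13, with 11 higher and 4 lower. H2-Eb1 had log2 differences of -0.45 in C3H/HeJ and 0.48 in C3H/HeOuJ, with an adjusted p of 0.184 for their difference. The C3H/HeOuJ ozone arrays also had the highest 5′ to 3′ actin ratios. They were 0.766 and 0.756, against 0.598 and 0.603 in C3H/HeOuJ air, with little spread within either group. A fit with this ratio as a covariate therefore cannot tell it apart from the ozone difference in C3H/HeOuJ. In C3H/HeJ the ratio was also higher on both ozone arrays, at 0.505 and 0.530 against 0.498 and 0.432 in air. The fit cannot fully separate the ratio from exposure in C3H/HeJ either. With that ratio as a covariate, 0 probe sets differed between the substrains and the smallest adjusted p by limma with Benjamini-Hochberg adjustment rose from 0.0509 to 1. For ozone against air in C3H/HeJ it rose from 0.136 to 0.912 under the same covariate, while the immunoglobulin median was -0.80 and the mitosis median 0.41.

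**Figure D5:**
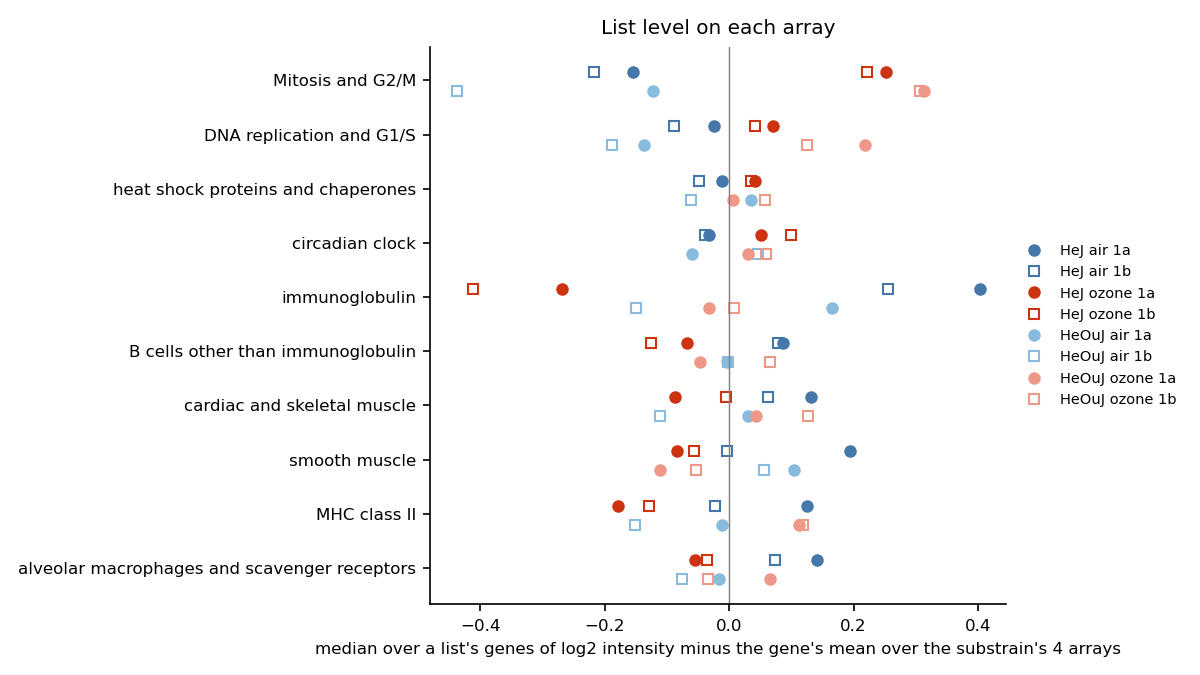
Each point is 1 array, placed at the median over the genes of a list of log2 intensity minus the mean of the gene over the 4 arrays of its substrain. Dark points are C3H/HeJ and pale points C3H/HeOuJ, blue for air and red for ozone. Mitosis levels are higher in ozone in both substrains, and immunoglobulin levels are 0.26 and 0.40 in C3H/HeJ air and -0.27 and -0.41 in C3H/HeJ ozone while the C3H/HeOuJ exposures overlap.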

How the data were processed

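Total RNA of mouse lung was measured on 8 one-colour oligonucleotide arrays of 12488 probe sets. The authors deposited 1 linear intensity per probe set and array, already scaled to a common trimmed mean, as the equal trimmed means show. The scanner software was not named in the sources used here. The members, gene lists and naming rule were chosen with earlier results of these data known. The 66 control probe sets were left out. Intensities below the 20th percentile (69.6) were raised to that floor before taking log2. Testing was limited to the 10953 probe sets that exceeded it on 2 or more arrays, which left out 1469. A model of 4 group means was fitted to the 8 arrays with limma 3.58.1 in R 4.3.3 (eBayes with a variance trend, 4 residual and 4.54 prior degrees of freedom), adjusted by Benjamini-Hochberg over all probe sets tested, and tested on simulated data. Gene names came from a 2016 platform annotation, with 10833 probe sets naming 1 gene, 396 several and 1193 none, and only the first kind was named. A list used for each gene the probe set with the highest mean log2. Genes named were the 12 of smallest p in each direction with exposures not overlapping, the 6 largest differences, up to 5 members of smallest p per list described and a set followed throughout, and some further list members were named after their values were seen. "At least" folds compare the group above the floor with the floor. Promoters came from a RefSeq table of GRCm38.p6. Precision is limited by having 2 arrays a group. Arrays with the same letter were not treated as pairs, since the correlations of their deviations ran from -0.01 to 0.14 and 3 of 6 were at or under 0.1 (C3H/HeJ air with ozone gave 0.12).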

Additional observations from a re-analysis of the deposited data

Results flagged for a closer look

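In 4 of 44 lists the ozone arrays lay on opposite sides of the air arrays in the substrains: both C3H/HeJ ozone arrays had a lower list level than both C3H/HeJ air arrays, and both C3H/HeOuJ ozone arrays had a higher one than both C3H/HeOuJ air arrays. The difference between substrains was not tested for any of these lists. Cardiac and skeletal muscle genes had a median log2 difference of -0.154 in C3H/HeJ, with list levels of 0.13 and 0.06 in air and -0.09 and -0.01 in ozone, and in C3H/HeOuJ levels of 0.03 and -0.11 in air and 0.04 and 0.13 in ozone. MHC class II genes had a median of -0.206, and levels in C3H/HeOuJ of -0.01 and -0.15 in air and 0.11 and 0.12 in ozone. Adipocyte genes had a median of -0.082, and levels of 0.05 and 0.00 in air and -0.07 and -0.01 in ozone in C3H/HeJ, a gap of 0.005 between the nearest arrays. Their levels in C3H/HeOuJ were -0.02 and -0.13 in air and 0.05 and 0.03 in ozone. Mesothelium genes had a median of -0.065, and levels of 0.10 and 0.04 in air and -0.02 and -0.10 in ozone in C3H/HeJ. Their levels in C3H/HeOuJ were -0.05 and -0.04 in air and -0.004 and 0.14 in ozone, with a median there of -0.007 and 6 of 11 genes lower. Leaving out 1 array gave a mesothelium median of -0.164 to -0.019.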

How the results depend on the processing

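The medians of the mitosis, immunoglobulin, muscle, smooth muscle, MHC class II and macrophage lists kept their sign under all 21 alternatives, and that of the other B cell genes under 10. Several alternatives left the C3H/HeJ log2 difference of each probe set as it was, so they could hardly turn a sign. These were no variance trend, only the C3H/HeJ arrays, the replicate block, array weights and leaving out a C3H/HeOuJ array. Sizes moved: leaving out 1 array gave -0.307 to -0.051 for MHC class II, -0.371 to -0.037 for smooth muscle and -0.233 to -0.070 for macrophages. Of 114 named probe sets taken through 19 alternatives, 103 kept their sign, and 5 passed an adjusted p of 0.05 in at least 1. Many of the 114 were chosen for a small p or a large difference. Where exposures did not overlap, leaving out 1 C3H/HeJ array could not turn the sign. The count of kept signs was therefore largely fixed in advance and is no support for the differences. The cause of the changes below was not tested. In C3H/HeOuJ the actin ratio went with exposure, so the covariate and exposure cannot be told apart there. In C3H/HeJ it was also higher on both ozone arrays, at 0.505 and 0.530 against 0.498 and 0.432 in air. The fit cannot fully separate the covariate from exposure in C3H/HeJ either. With the actin ratio as a covariate the smallest adjusted p was 0.912 between exposures and 1 between substrains. Probe sets called between exposures numbered 8 with no filter on dim probe sets (Myl2, Nr4a1 and Retn among them) and 2 with array weights (Igkv6-23 and Ighm). Those called between substrains numbered 3 with quantile normalisation, 3 with the floor at the 10th percentile, 3 at the 40th, 10 with no filter, 9 when 6 arrays had to be above the floor, and 0 to 10 leaving out 1 array, the 10 without C3H/HeJ air 1b. Probe sets with an unadjusted p under 0.05 numbered 784 with only the C3H/HeJ arrays, 757 with array weights and 303 to 616 leaving out 1 array, the 303 without C3H/HeJ air 1a. With the letters as a replicate block, 0 probe sets were called between exposures (smallest adjusted p 0.137) and 0 between substrains, 515 had an unadjusted p under 0.05, and the block changed no other call.

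The mitosis median was 0.51 with the floor at the 10th percentile and 0.32 to 0.51 leaving out 1 array, and its members with an unadjusted p under 0.05 were 4 with the actin ratio as a covariate and 3 to 12 leaving out 1 array, the 3 without C3H/HeJ ozone 1b. The immunoglobulin median was -0.51 for the mean of the probe sets of a gene, -0.38 for plain probe sets, -0.35 with the floor at the 40th percentile and -0.83 to -0.60 leaving out 1 array. With plain probe sets 15 of 18 genes were lower and 2 had an unadjusted p under 0.05. The muscle median was -0.27 with the floor at the 10th percentile and -0.24 with the actin covariate, and its members with an unadjusted p under 0.05 were 4 with no variance trend, 3 with the covariate and 0 to 8 leaving out 1 array, the 0 without C3H/HeJ air 1a.

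Small differences changed sign. The dimmer probe set of Cdkn1a, with a log2 difference of 0.018, was -0.008 with quantile normalisation and -0.002 with median centring. It was -0.361 to 0.396 leaving out 1 array. The brighter probe set of Cdkn1a had a log2 difference of -0.39, with exposures that did not overlap. Hmox1 was -0.034 with the actin covariate and -0.013 to 0.125 leaving out 1 array, Hspa1b -0.133 to 0.091, and Tjp1 -0.146 to 0.382. Nos2 was -0.534 with the covariate and -0.112 to 1.022 leaving out 1 array. The probe sets of Nqo1 were 0.280 and -0.859 with the covariate, -0.002 with median centring for the second, and -0.728 to 0.412 and -0.553 to 0.589 leaving out 1 array. Sftpc was 0.055 with quantile normalisation and -0.258 to 0.059 leaving out 1 array. An array left out leaves a group with 1, which is assumed to vary like the others.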
